A study of Mus musculus with 7 samples.

Results

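The 39 genes described here carry glucose through glycolysis to lactate or set the rate at which this happens, and they are examined for the histone mark H3K27-Ac in 3 mouse skin tumour cell clones. They are a fixed list of glucose transporters, glycolytic enzymes, lactate dehydrogenases, lactate transporters, pyruvate dehydrogenase kinases, PFKFB enzymes and *Hif1a*, named for their role in the pathway by a rule that uses no measured value, although the list was drawn up with earlier results of these data known, and they are 39 of 21911 protein-coding genes with an annotated transcription start on the chromosomes used. All 3 clones are *Cdkn2ab-/-* cells of an FVB/129P2 backcross, which lack the cell cycle inhibitors of the *Cdkn2ab* locus and were grown in culture from skin carcinomas of such mice, so there is 1 condition with 1 clone as the unit of replication and no untreated or wild-type group. H3K27-Ac ChIP-seq, in which an antibody against the mark enriches the DNA that carries it, gave 4 libraries (clone 3 has 2, which the authors pooled), beside 3 libraries with a non-specific IgG antibody from clones 1 and 3. The authors deposited 1 list of peaks per clone.

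Glycolysis splits glucose into pyruvate in the cytosol, and many tumour cells then reduce pyruvate to lactate and export it even where oxygen is present. Most steps are served by several isoforms from separate genes, of which one is usually made in most dividing cells and others in liver, muscle, brain or the male germ line. H3K27-Ac marks active promoters and enhancers, so a peak over a transcription start is a sign of an active promoter, although it measures neither the transcript nor the enzyme.

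A promoter peak is a listed peak that overlaps by at least 1 bp the window from 1 kb before to 1 kb after any GENCODE start of a gene, and a body peak overlaps the gene but none of these windows. For each gene the promoter peak with the highest fold enrichment was taken, which is the number of ChIP fragments at the summit over the local control background. Since fold enrichment depends on the depth of a library, it was compared within a list only, and its percentile among all peaks of the list was used across clones. The lists of clones 1, 2 and 3 held 29182, 49587 and 29277 peaks whose summits rested on 37, 34 and 53 ChIP reads in the median and on no fewer than 13, 12 and 25. A weaker site would not be listed, so a missing peak does not tell a gene without the mark from one marked below detection at this depth. No IgG library of clone 2 is among the samples, and the control counts under the peaks of clone 2 tracked those of clone 1. At 1220 summits their difference had 0.0633 of the variance that separate libraries would give, while for clones 1 and 3 the value was 0.774, so the folds of clones 1 and 2 share control reads. No list held a promoter peak of *Cdkn2a* or *Cdkn2b*, the targeted genes, while 1, 2 and 2 body peaks lay in *Cdkn2a*, and the extent of the deletion was not examined. Of 11 keratinocyte and hair follicle markers 4, 4 and 3 had a promoter peak in clones 1, 2 and 3, with *Krt5*, *Krt17*, *Trp63*, *Cdh1*, *Lef1* and *Dsg3* in none and *Sox9*, *Cdh3* and *Itga6* in all. *Krt14* had one in clone 1 only and *Krt15* in clone 2 only. Of 9 mesenchymal markers 7, 7 and 5 had one, with *Vim*, *Twist1*, *Twist2* and *Pdgfrb* in all, *Thy1* in none, and *Col1a1*, *Col1a2* and *Pdgfra* in clones 1 and 2 but not in clone 3. *Col3a1* went the other way, with a 5.74-fold peak of 44 reads in clone 3 only. Of 5 leukocyte markers 1, 1 and 0 had a promoter peak, of 4 endothelial markers 0, 0 and 1, of 4 melanocyte markers 1, 1 and 1, and of 4 muscle markers 0, 1 and 0. The part of this marker pattern in the results below was not tested.

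The following promoter sequences come from some of the families only and do not stand for the others. Each family sets the isoform with its strongest promoter peak beside isoforms with no promoter peak or with one in clone 2 only. They are the RefSeq bases (GRCm38.p6) upstream of a RefSeq transcription start of *Hk2* and *Hk3*, *Pgk1* and *Pgk2*, the 3 lactate dehydrogenases, and both lactate transporters, read 5′ to 3′ along the gene and ended early where they met an annotated exon. Capitals mark ACGTG or GCGTG on either strand, the core letters to which hypoxia-inducible factors are known to bind, and matches on opposite strands can overlap, as in CACGTG.
Hk2 (chr6:82774455-82774704, minus strand): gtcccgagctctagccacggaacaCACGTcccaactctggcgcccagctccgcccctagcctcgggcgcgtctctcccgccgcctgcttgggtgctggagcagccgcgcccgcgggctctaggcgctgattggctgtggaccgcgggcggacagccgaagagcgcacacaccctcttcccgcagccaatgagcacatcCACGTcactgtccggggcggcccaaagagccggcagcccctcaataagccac
Hk3 (chr13:55021386-55021635, minus strand): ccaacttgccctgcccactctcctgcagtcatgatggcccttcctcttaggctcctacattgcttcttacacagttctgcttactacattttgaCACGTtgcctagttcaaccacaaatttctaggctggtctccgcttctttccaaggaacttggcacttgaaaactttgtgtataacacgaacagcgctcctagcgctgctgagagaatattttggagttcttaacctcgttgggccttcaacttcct
Pgk1 (chrX:106186850-106187099, plus strand): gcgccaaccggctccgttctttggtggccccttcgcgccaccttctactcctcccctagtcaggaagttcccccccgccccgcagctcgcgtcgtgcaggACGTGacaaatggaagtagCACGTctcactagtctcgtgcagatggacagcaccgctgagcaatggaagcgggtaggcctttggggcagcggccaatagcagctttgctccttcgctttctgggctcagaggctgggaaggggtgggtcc
Pgk2 (chr17:40208641-40208859, minus strand): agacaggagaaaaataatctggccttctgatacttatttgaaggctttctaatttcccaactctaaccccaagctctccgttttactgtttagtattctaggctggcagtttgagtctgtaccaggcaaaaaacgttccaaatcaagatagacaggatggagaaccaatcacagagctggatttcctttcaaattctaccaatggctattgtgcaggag
Ldha (chr7:46845554-46845803, plus strand): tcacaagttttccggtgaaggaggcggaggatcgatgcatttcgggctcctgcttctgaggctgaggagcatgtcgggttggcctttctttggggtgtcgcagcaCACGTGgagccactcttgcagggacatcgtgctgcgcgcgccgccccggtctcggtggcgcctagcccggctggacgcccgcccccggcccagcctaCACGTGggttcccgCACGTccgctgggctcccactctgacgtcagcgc
Ldhb (chr6:142507958-142508207, minus strand): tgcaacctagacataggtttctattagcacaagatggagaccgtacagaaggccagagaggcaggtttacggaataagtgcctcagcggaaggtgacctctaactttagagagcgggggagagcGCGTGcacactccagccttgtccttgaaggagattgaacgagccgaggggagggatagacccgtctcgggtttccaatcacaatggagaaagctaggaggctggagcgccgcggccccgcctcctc
Ldhc (chr7:46861013-46861202, plus strand): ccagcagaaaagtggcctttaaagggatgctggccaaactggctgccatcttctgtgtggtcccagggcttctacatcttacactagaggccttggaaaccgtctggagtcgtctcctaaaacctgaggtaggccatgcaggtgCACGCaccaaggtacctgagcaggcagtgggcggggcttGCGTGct
Slc16a1 (chr3:104638414-104638663, plus strand): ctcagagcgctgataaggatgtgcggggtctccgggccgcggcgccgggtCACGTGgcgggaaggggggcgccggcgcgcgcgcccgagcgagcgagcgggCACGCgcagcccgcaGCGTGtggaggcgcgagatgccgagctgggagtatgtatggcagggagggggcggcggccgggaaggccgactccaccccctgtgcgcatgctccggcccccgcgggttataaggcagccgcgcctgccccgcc
Slc16a3 (chr11:120948817-120949052, plus strand): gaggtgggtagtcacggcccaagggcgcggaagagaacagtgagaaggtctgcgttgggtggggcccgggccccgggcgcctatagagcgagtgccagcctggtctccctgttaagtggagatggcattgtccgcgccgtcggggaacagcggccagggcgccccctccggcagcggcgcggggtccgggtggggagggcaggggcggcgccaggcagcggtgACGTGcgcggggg
The stretch of *Ldha* holds 5 matches, which start 145, 144, 48, 47 and 34 bases before that start, and 25 CpG dinucleotides in 250 bases. *Ldhb* holds 1 match and 14 CpGs, and *Ldhc* 2 matches and 5 CpGs in 190 bases. *Pgk1* and *Hk2* hold 2 matches each with 17 and 25 CpGs, whereas *Pgk2* has none and 2 CpGs in 219 bases, and *Hk3* has 1 and 6 CpGs. *Slc16a1* and *Slc16a3* are both CpG-rich, with 37 CpGs and 4 matches in 250 bases and 25 CpGs and 1 match in 236 bases. The windows of *Hk2*, *Pgk1*, *Ldha* and *Slc16a1* were under a peak in all 3 clones, that of *Ldhb* in 1, and those of *Hk3*, *Pgk2*, *Ldhc* and *Slc16a3* in none, so a CpG-rich stretch was not always under a peak.

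RefSeq windows from 250 bases before to 50 after a start were found for 37 of the 39 genes, 59 windows in all, and for *Slc2a3* and *Slc2a4* there was none. ACGTG on either strand was present in 24 of the 59 windows (40.7%), against 19.6% of all 32851 windows, and GCGTG in 27 (45.8%) against 32.4%. The E-box letters CACGTG, which contain ACGTG on both strands, were in 7 (11.9%) against 7.15%, and GGGCGG in 25 (42.4%) against 35.7%. Among windows under a peak in all 3 clones ACGTG was in 13 of 26 (50.0%) for the listed genes and in 28.4% for all genes, GCGTG in 69.2% and 56.5%, and GGGCGG in 57.7% and 69.8%. Among windows of listed genes under no peak ACGTG was in 5 of 19 (26.3%), against 14.9% of all such windows. Not every leading isoform held it: the *Eno1* windows had GCGTG only, and a *Pkm* window had neither. At their outermost starts *Gapdhs* and *Pfkm* had windows with 2 and 3 ACGTG matches under no peak. Several windows belong to the same gene and overlap, and a match is a description of the letters, not a bound site.

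A promoter peak was listed for 24, 31 and 24 of the 39 genes in clones 1, 2 and 3, or 26.3 ± 4.04 (SD, n = 3 clones). These are 61.5%, 79.5% and 61.5% of the list, against 49.8%, 56.9% and 48.1% of all protein-coding genes. In all 3 clones 23 genes (59.0%) had one, against 46.5% of all genes, and 8 (20.5%) had none in any clone, against 42.6%. The 23 were *Slc2a1*, *Hk1*, *Hk2*, *Gpi1*, *Pfkl*, *Pfkm*, *Pfkp*, *Aldoa*, *Tpi1*, *Gapdh*, *Pgk1*, *Pgam1*, *Eno1*, *Eno2*, *Eno3*, *Pkm*, *Ldha*, *Slc16a1*, *Pdk1*, *Pfkfb1*, *Pfkfb2*, *Pfkfb3* and *Hif1a*, so that every step from glucose uptake to lactate export had at least 1 marked promoter in each clone. The 8 were *Slc2a2*, *Slc2a4*, *Hk3*, *Gapdhs*, *Pgk2*, *Pgam2*, *Pklr* and *Ldhc*, which are isoforms known from liver, muscle and fat, white blood cells, or the male germ line. A further 6 genes (15.4%) had a promoter peak in clone 2 only, against 6.15% of all genes, *Pdk3* lacked one in clone 1, and *Pfkfb4* lacked one in clone 3.

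**Figure D1:**
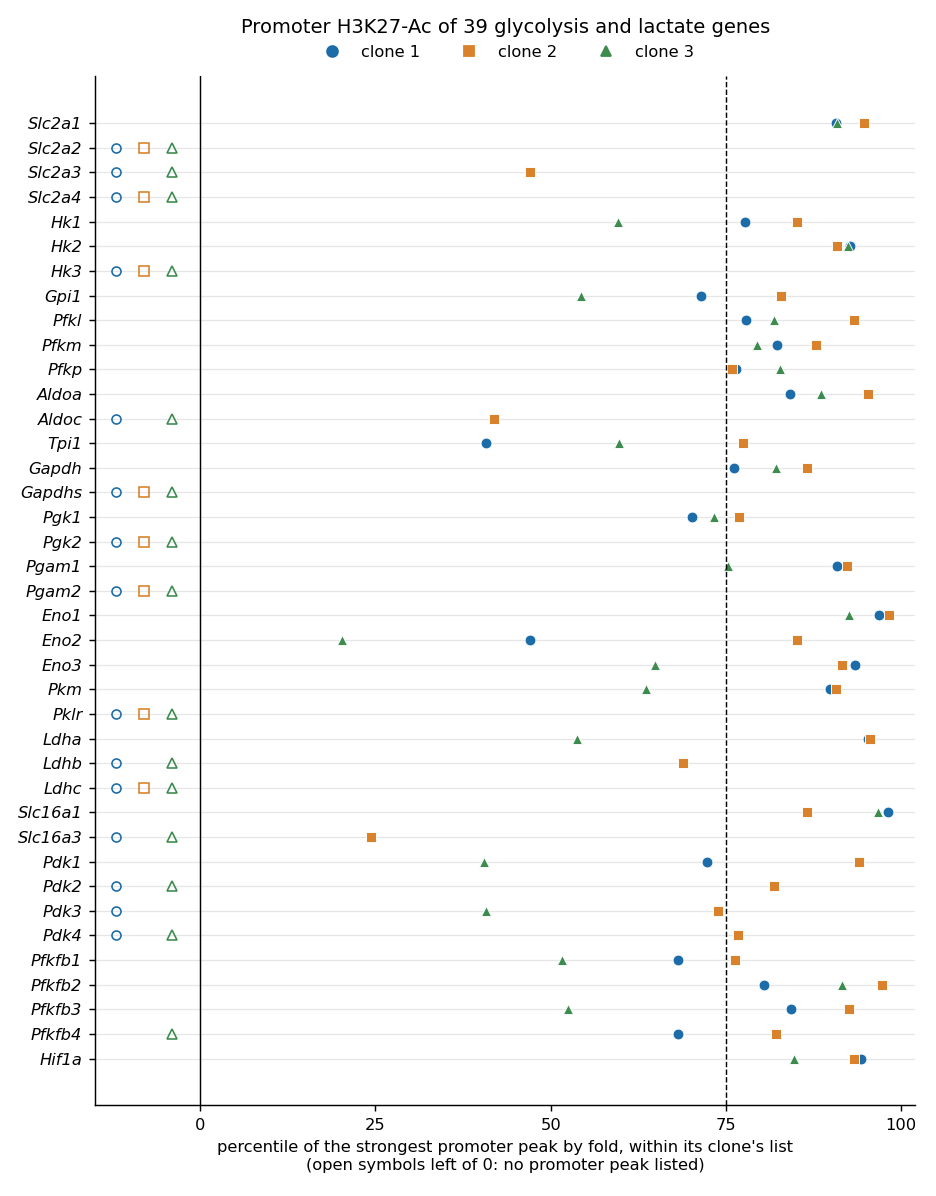
Each row is a gene and each symbol a clone, placed at the percentile of its strongest promoter peak by fold enrichment among all peaks of that clone's list; open symbols left of 0 mark clones without a promoter peak, and the dashed line is the 75th percentile. The rows of *Slc2a1*, *Hk2*, *Eno1* and *Slc16a1* lie right of the line in every clone, whereas 8 rows hold open symbols only.

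The marked promoters of the list ranked about where those of other genes did. The median percentile of the listed genes was 81.4, 86.5 and 74.3 in clones 1, 2 and 3 (80.7 ± 6.13, SD, n = 3), and that of all genes with a promoter peak was 81.1, 88.1 and 77.4 (82.2 ± 5.43). The difference between the list and all genes was thus within the spread between clones. Ranked against promoter peaks only, the listed genes had a mean of the 3 medians of 46.7 ± 3.42. A peak in the top quartile of the peak list in all 3 clones was found for 12 of the 23 genes (52.2%), against 47.8% of the 10195 genes with a promoter peak in all 3. These 12 were *Slc2a1*, *Hk2*, *Pfkl*, *Pfkm*, *Pfkp*, *Aldoa*, *Gapdh*, *Pgam1*, *Eno1*, *Slc16a1*, *Pfkfb2* and *Hif1a*. Each value is an average over the cells of a clone, in which fewer cells with the mark and less of the mark per cell cannot be told apart.

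Glucose enters through the Slc2a transporters. *Slc2a1*, the basal transporter of most cells (chr4:119108711-119137983, plus strand), had a promoter peak of 27.8-fold in clone 1, 59.1-fold in clone 2 and 11.8-fold in clone 3, resting on 152, 332 and 94 ChIP reads. These peaks stood at percentiles 90.7, 94.7 and 90.9, a range of 4.0 points, and all summits lay 47 to 64 bp downstream of the same start. *Slc2a3*, the transporter best known from neurons, had a promoter peak in clone 2 only, of 6.73-fold and 32 reads, beside body peaks in all 3 clones of up to 6.22-, 10.2- and 5.77-fold. *Slc2a2* of liver and *Slc2a4* of muscle and fat had none, and the peak nearest to any of their starts lay at least 13188 and 11538 bp away.

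The hexokinases trap glucose by phosphorylation, and *Hk2* is the isoform induced in many tumours. *Hk2* (chr6:82725025-82774454, minus strand) had 30.8-, 46.4- and 12.4-fold promoter peaks in clones 1, 2 and 3, and *Hk1*, the widely expressed isoform, 16.6-, 32.3- and 6.11-fold. *Hk2* was the higher in every clone, by 0.81 ± 0.26 on the log2 scale of fold (SD, n = 3), which is larger than the spread between clones. The reads behind them did not overlap in their 95% Poisson intervals in any clone: 131 (110 to 155) against 73 (57.2 to 91.8) in clone 1, 209 (182 to 239) against 148 (125 to 174) in clone 2, and 101 (82.3 to 123) against 47 (34.5 to 62.5) in clone 3. Such intervals cover counting error only. *Hk2* was also the more even, at percentiles 92.7, 90.9 and 92.4, whereas *Hk1* stood at 77.7, 85.1 and 59.6. The *Hk1* peaks lay at the start at base 62340542 of chromosome 10, and the outermost start, at base 62379908, was under a peak in none of the clones. *Hk3*, known from white blood cells, had no peak within 77987 bp of a start in any clone.

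*Gpi1*, the isomerase that follows hexokinase, had 13.5-, 27.7- and 5.68-fold promoter peaks at percentiles 71.5, 82.9 and 54.3. In clone 2 it had 3 further promoter peaks, of 14.3-, 10.2- and 7.21-fold, around an internal start at base 34213436 of chromosome 7.

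Phosphofructokinase commits sugar to glycolysis, and its liver (*Pfkl*), muscle (*Pfkm*) and platelet (*Pfkp*) subunits were all marked, without a constant order. *Pfkl* had 16.7-, 54.0- and 9.15-fold peaks in clones 1, 2 and 3, *Pfkm* 19.7-, 38.6- and 8.66-fold, and *Pfkp* 15.9-, 17.3- and 9.32-fold. The highest was thus *Pfkm* in clone 1, *Pfkl* in clone 2 and *Pfkp* in clone 3. On the log2 scale *Pfkl* exceeded *Pfkm* by 0.11 ± 0.36 and *Pfkp* by 0.56 ± 0.94, and *Pfkm* exceeded *Pfkp* by 0.45 ± 0.64 (SD, n = 3), all within the spread between clones. In clones 1 and 3 the folds of the 3 subunits differed little. By fold clone 2 held the gap, with 250 reads (220 to 283) for *Pfkl* and 119 (98.6 to 142) for *Pfkp*. By ChIP reads clone 1 also held a gap, with 116 (95.9 to 139) for *Pfkl* and 63 (48.4 to 80.6) for *Pfkp*. *Pfkm* had 137 reads (115 to 162) there. The control background in clone 1 was 2.0 reads at *Pfkl* and *Pfkm* and 0.743 at *Pfkp*, and a fold is divided by it. In clone 3 *Pfkl*, *Pfkm* and *Pfkp* had 72, 103 and 82 reads.

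The starts behind these peaks were not alike. The strongest *Pfkm* peak had its summit 811, 846 and 766 bp downstream of the nearest *Pfkm* start in clones 1, 2 and 3, at the divergent gene *Senp1*, a protease of the SUMO pathway. A second *Pfkm* peak lay 100 to 225 bp downstream of an internal start at base 98108466 of chromosome 15 and was weaker, with 7.54-, 27.4- and 4.85-fold. *Pfkm* lies on a chromosome with a raised control background. This background was 1.34, 1.33 and 1.39 times that of other autosomes in clones 1, 2 and 3. The paper reports a gain of the FVB/N form of this chromosome in the cell lines it analysed. Such a gain can raise the ChIP reads as well as the background by which a fold is divided. Its part in the reads and folds of *Pfkm* was not tested. For *Pfkp* the strongest peak lay at the upstream starts, near base 6648725, in clones 1 and 2 but at an internal start at base 6636650 of chromosome 13 in clone 3. At the upstream starts the clone 3 peak had 3.47-fold (percentile 6.89), and at the internal start clones 1 and 2 had 4.17- and 6.15-fold (percentiles 7.28 and 40.6). Read at the *Pfkl* peak, the internal *Pfkm* start and the upstream *Pfkp* starts, a choice made after the values were seen, *Pfkl* had the highest fold of the subunits in each clone.

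The PFKFB enzymes make or remove the bisphosphate that switches phosphofructokinase on. *Pfkfb3*, the isoform of dividing cells with the strongest kinase activity, had 21.3-, 51.4- and 5.57-fold promoter peaks in clones 1, 2 and 3 (percentiles 84.3, 92.5 and 52.5). *Pfkfb2* had 18.4-, 71.1- and 12.1-fold peaks (percentiles 80.4, 97.2 and 91.5), and so led in clones 2 and 3 but not in clone 1. Their log2 ratio, *Pfkfb2* over *Pfkfb3*, was 0.46 ± 0.66 (SD, n = 3), within the spread. The *Pfkfb2* peak, 2849, 2806 and 2682 bp wide, also reached the starts of *Yod1* and *Gm29427*, and in clone 2 its summit was nearest to *Yod1*. *Pfkfb1*, the liver isoform, had 12.1-, 17.8- and 5.5-fold peaks shared with *Apex2* in all clones, and *Pfkfb2* exceeded it by 1.24 ± 0.70. *Pfkfb4* had 12.1- and 26.2-fold peaks in clones 1 and 2 and none in clone 3.

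Aldolase splits the sugar bisphosphate into trioses, and *Aldoa*, its widespread isoform, had 21.3-, 61.7- and 11-fold peaks at percentiles 84.2, 95.3 and 88.6. Peaks covered 54.7%, 66.3% and 38.6% of the 5518 bp of *Aldoa* in clones 1, 2 and 3. In clones 1 and 2 these peaks had their summits at a start at base 126798993 of chromosome 7, and in clone 3 at one at base 126800036. Around the first of these places clone 3 had 4.18-fold (percentile 23.9), and at the second clones 1 and 2 had 11.8- and 47.1-fold (percentiles 67.4 and 91.1). By ChIP reads the second place was the higher in each clone, with 109, 290 and 87 reads against 98, 286 and 51. The order by fold thus also depends on the local control background. The *Aldoa* peak also reached the neighbour *Fam57b* in clones 1 and 2. *Aldoc*, the brain isoform, had a single 6.24-fold peak of 24 reads in clone 2. *Tpi1*, which interconverts these trioses, was among the weaker of the shared promoters, with 6.6-, 19.1- and 6.11-fold at percentiles 40.7, 77.4 and 59.8.

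In the next families *Gapdh*, *Pgk1* and *Pgam1* were each the only isoform with a promoter peak. *Gapdh*, which oxidises the triose, had 15.7-, 35.3- and 9.18-fold peaks at percentiles 76.1, 86.5 and 82.1, and peaks covered 51.8%, 87.5% and 42.2% of the gene. *Pgk1*, which makes the first ATP, had 13-, 18.5- and 7.69-fold peaks at percentiles 70.2, 76.9 and 73.3. Its peak in clone 3 lay upstream of the start and that in clone 1 downstream of it, while a single peak of clone 2 covered both. Downstream clone 3 had 5.99-fold (percentile 58.2), and upstream clone 1 had 7.42-fold (percentile 47.7). The X chromosome that carries it had a control background of 0.95, 1.02 and 0.767 times that of the autosomes. *Pgam1*, the next mutase, had 27.9-, 50.4- and 7.94-fold peaks at percentiles 90.8, 92.2 and 75.3. Their partners *Gapdhs* and *Pgk2*, known from sperm, and *Pgam2*, known from muscle, had no promoter peak in any clone, with the nearest to a start of *Pgk2* lying at least 594110 bp away. A peak over the end of *Gapdhs*, of 14.4-, 35.2- and 7.11-fold, had its summit outside the gene and nearest to *Tmem147*.

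Enolase forms phosphoenolpyruvate, and its widespread isoform *Eno1* (chr4:150236721-150248879, plus strand) had the highest fold of all 39 genes in clone 2 and the second highest in clones 1 and 3, after *Slc16a1*. Its values were 39.8-, 77.2- and 12.6-fold, on 155, 312 and 100 reads, at percentiles 96.9, 98.2 and 92.6. The control background at this peak was 0.677, 0.743 and 1.54 reads in clones 1, 2 and 3, the lowest of each list. At *Slc16a1* it was 1.0, 3.0 and 2.0 reads, and a fold is divided by this background. By ChIP reads *Slc16a1* stood above *Eno1* in each clone, with 206, 330 and 147, and *Slc2a1* was highest in clone 2, with 332. *Eno2*, the neuronal isoform, had 7.28-, 32.5- and 4.04-fold peaks on 32, 130 and 30 reads. *Eno1* exceeded *Eno2* in each clone, by 1.78 ± 0.61 on the log2 scale (SD, n = 3). *Eno2* also varied most among the genes marked in every clone, from percentile 20.2 in clone 3 over 47.0 in clone 1 to 85.2 in clone 2, and its clone 3 peak, with a −log10 q of 3.08, was lost at a minimum of 5. *Eno3*, the muscle isoform, was assigned 31.8-, 48.5- and 6.6-fold peaks, 0.64 ± 0.30 below *Eno1* on the same scale. These peaks had their summits at -2830, -3295 and -1276 bp from the nearest *Eno3* start, that is upstream of it, and reached the start of *Pfn1*, the gene of an actin-binding protein. In clones 1 and 2 the summit was nearest to *Pfn1* and in clone 3 to *Eno3*, so that the mark of both genes cannot be told apart there. Peaks with a summit within 1 kb of an *Eno3* start were weaker, with 5.31-fold as the highest in clone 1, 17.2-fold in clone 2, and none in clone 3.

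Pyruvate kinase yields pyruvate and the second ATP. *Pkm*, the gene of the isoform of most tissues and tumours (chr9:59656368-59679375, plus strand), had 26.7-, 45.9- and 6.49-fold peaks at percentiles 89.8, 90.7 and 63.6. Its peak in clone 1 was the widest of the list, at 5355 bp, against 2339 bp in clone 2 and 517 bp in clone 3. Both splice forms of *Pkm* share these starts, so the peaks do not tell them apart. *Pklr*, of liver and red blood cells, had no peak within 23192 bp of a start in any clone.

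Among the lactate dehydrogenases *Ldha* led in each clone, but by fold it stood much lower in the list of clone 3 than in the others. *Ldha*, the isoform that favours lactate (chr7:46841475-46855627, plus strand), had 35.2-fold on 164 reads in clone 1 and 62.6-fold on 290 reads in clone 2, at percentiles 95.2 and 95.5. In clone 3 it had 5.63-fold on 53 reads, at percentile 53.7. A second clone 3 peak, 1144 bp wide, lay over the position of the summit in clones 1 and 2 and had 4.54-fold on 85 reads (percentile 33.1). The median of the listed genes in clone 3 was 72.5 reads, so this peak was low in fold but not in reads. At the strongest *Ldha* peak the control background was 1.0, 1.0 and 2.08 reads in clones 1, 2 and 3, and a fold is divided by this background. *Ldhb*, the isoform of heart that favours pyruvate, had a 12.2-fold peak of 49 reads in clone 2 only, and its nearest peak was 107551 bp from a start in clone 1 and 40094 bp in clone 3. *Ldhc*, of sperm, lies downstream of *Ldha* and had no peak within 13909 bp of a start.

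Lactate leaves through monocarboxylate transporters. *Slc16a1* (chr3:104638668-104658462, plus strand) had 44.1-, 35.6- and 15.4-fold peaks on 206, 330 and 147 reads, at percentiles 98.1, 86.6 and 96.7, and was the gene of the list with the highest fold in clones 1 and 3. *Slc16a3*, the transporter known for lactate export from glycolytic and hypoxic cells, had in clone 2 a 5.04-fold peak of 33 reads at percentile 24.4, and its nearest peak was 15671 bp from a start in clone 1 and 15545 bp in clone 3. The clone 2 peak lay at an internal start and not over the CpG-rich window printed above.

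The pyruvate dehydrogenase kinases restrain the oxidation of pyruvate in the mitochondrion by switching off its dehydrogenase. Of the 4 kinases 3 lacked a promoter peak in at least 1 clone. *Pdk1* had 13.8-, 56.4- and 4.89-fold peaks at percentiles 72.3, 94.0 and 40.5. *Pdk3*, on the X chromosome, had a 15.6-fold peak of 143 reads in clone 2, a 4.89-fold peak of 37 reads in clone 3 and none in clone 1. *Pdk2* had a 25.9-fold peak of 103 reads in clone 2 alone and *Pdk4*, a gene of fasting metabolism, an 18.3-fold peak of 101 reads in clone 2 alone. So all 4 kinases were marked in clone 2, against 1 in clone 1 and 2 in clone 3. These are not the weakest peaks of clone 2. Of the 176 protein-coding genes whose clone 2 promoter peak had 100 to 105 reads, 90.9% also had one in clone 1 and 76.7% in clone 3, and 3.98% had one in clone 2 only. The clone 2 peaks of *Slc2a3*, *Aldoc*, *Ldhb* and *Slc16a3* rested on 24 to 49 reads, and of the 948 genes in that range 69.0% had a promoter peak in clone 2 only.

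*Hif1a*, the oxygen-regulated factor that is known to raise many of these genes, had 33.4-, 54.0- and 9.82-fold peaks at percentiles 94.3, 93.3 and 84.7. In clone 3 a further peak of 3.95-fold and 48 reads lay 244 bp downstream of the outermost start, where clones 1 and 2 had none.

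Across the 13 isoform families the gene with the highest fold was the same in all clones in 10: *Slc2a1*, *Hk2*, *Aldoa*, *Gapdh*, *Pgk1*, *Pgam1*, *Eno1*, *Pkm*, *Ldha* and *Slc16a1*. The others were phosphofructokinase, PFKFB and the pyruvate dehydrogenase kinases, of which the last was led by *Pdk1* in clones 1 and 2 and in clone 3 by *Pdk3* over *Pdk1*, both at 4.89-fold, on 37 and 76 reads. *Pdk1* led in all 3 clones where peaks needed a −log10 q of at least 5 or had to cover a start base, and where isoforms were ranked by −log10 p or width. In 8 of the 10 a single member had a promoter peak in clones 1 and 3, so the order there is a matter of a listed against an unlisted peak. With 3 clones an exact two-sided sign-flip test of a ratio cannot go below p = 0.25, so none was run.

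**Figure D2:**
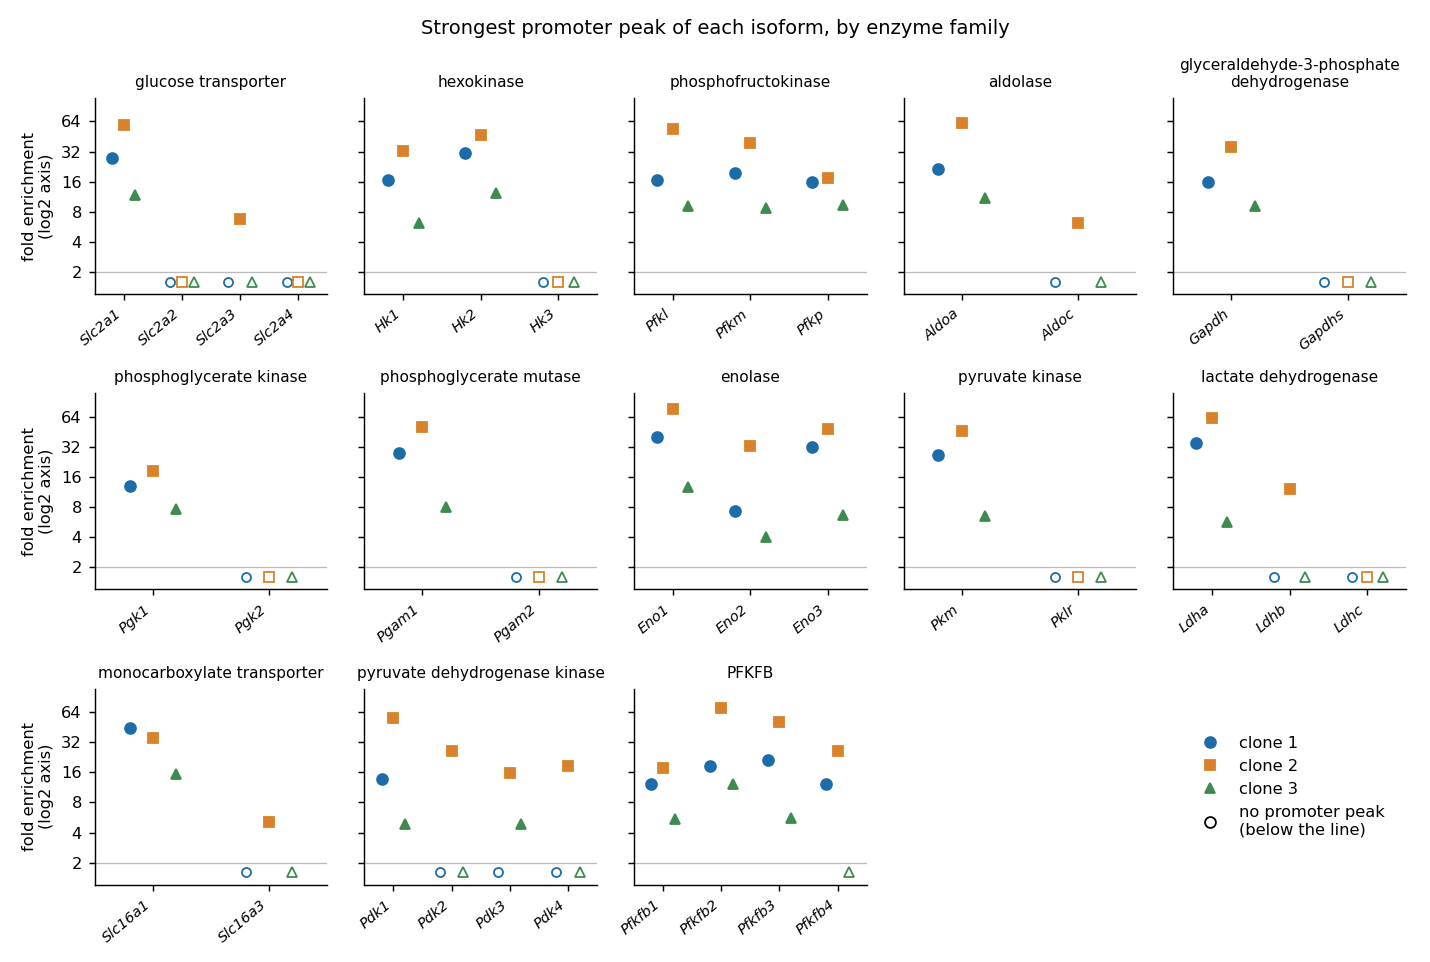
Fold enrichment of the strongest promoter peak of each gene, on a log2 axis, in 1 panel per enzyme family with 1 symbol per clone; open symbols below the grey line mark clones without a promoter peak. *Slc2a1*, *Hk2*, *Eno1* and *Ldha* lie above their isoforms in every clone, while the symbols of *Pfkl*, *Pfkm* and *Pfkp* change order.

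The promoter peaks of the list were broader than those of all genes in clones 1 and 2 but not in clone 3. Median widths were 1682.5, 1659 and 952 bp in clones 1, 2 and 3 (1430 ± 415, SD, n = 3), against 1223, 1356 and 1052 bp for all genes (1210 ± 152), so the difference of the means was within the spread between clones. A peak of 2 kb or wider belonged to 9 of 24, 12 of 31 and 3 of 24 genes in clones 1, 2 and 3 (37.5%, 38.7% and 12.5%), against 17.7%, 18.3% and 11.6% of all genes. The 3 in clone 3 were *Eno1* at 3777 bp, *Pfkfb2* at 2682 bp and *Slc16a1* at 2406 bp. Of the listed genes 8 of 24, 14 of 31 and 11 of 24 had 2 or more promoter peaks in clones 1, 2 and 3 (33.3%, 45.2% and 45.8%), against 24.5%, 25.2% and 26.4% of all genes. Summed over all promoter peaks of a gene the medians were 1930, 2179 and 1532.5 bp in clones 1, 2 and 3, against 1396.5, 1488 and 1254 bp for all genes, and so the list was above all genes in each clone. The number of annotated starts of the genes, on which this sum also depends, was not matched.

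**Figure D3:**
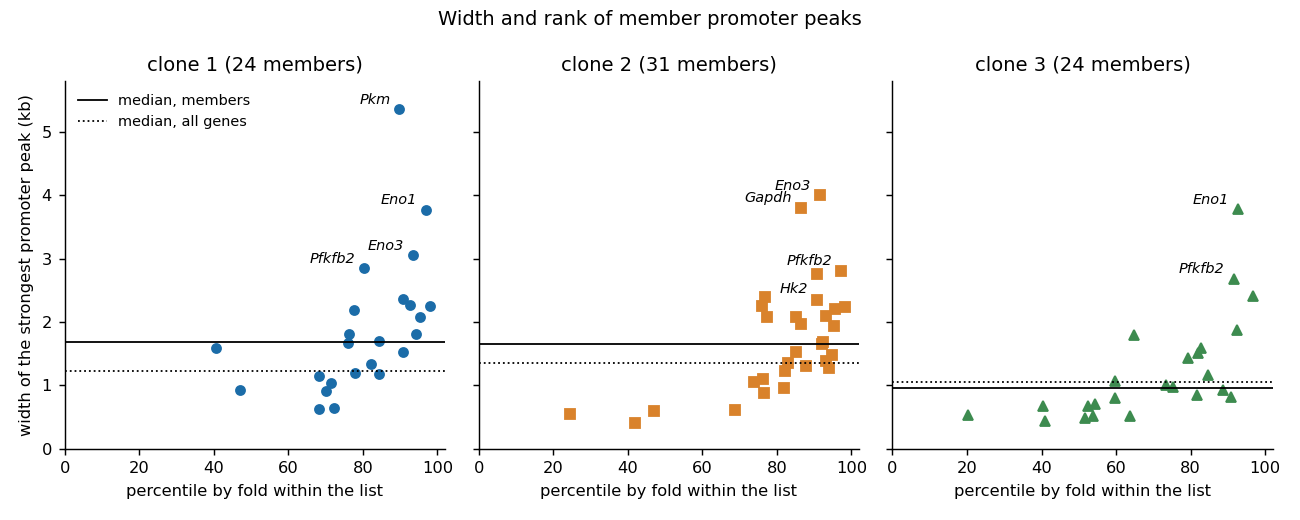
Width of the strongest promoter peak in kb against its percentile by fold within the list, 1 panel per clone and 1 symbol per gene; the solid line is the median of the listed genes and the dotted line that of all protein-coding genes, and the widest are named. The solid line lies above the dotted line in clones 1 and 2 and below it in clone 3.

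Summits lay downstream of the nearest start in 16 of 24, 21 of 31 and 18 of 24 genes in clones 1, 2 and 3 (66.7%, 67.7% and 75%), against 72.6%, 72.6% and 68.9% of all genes. They were within 500 bp of it in 91.7%, 90.3% and 87.5%, against 92.4%, 91.8% and 90.2%. In position the promoters of the list were therefore close to those of other genes.

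Body peaks, which may mark enhancers inside a gene, were found in 8, 14 and 8 of the 39 genes in clones 1, 2 and 3 (10.0 ± 3.46, SD, n = 3). These are 20.5%, 35.9% and 20.5%, against 15.1%, 27.1% and 16.5% of all protein-coding genes. There were 15, 60 and 23 such peaks, and *Slc2a1*, *Hk1* and *Hk2* held 8, 33 and 12 of them, the first steps of the pathway. Merged over the clones they made 66 places, of which 43 were marked in clone 2 only and 7 in all 3 clones. Of the 98 peaks 86 had their summit in an intron.

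Of the 7 places marked in every clone 2 were in *Slc2a1*, 3 in *Hk1*, 1 in *Hk2* and 1 at the end of *Gapdhs*. In *Slc2a1* they lay 12.3 and 17.4 kb from the outermost start, both in introns, with strongest folds of 10.0, 15.3 and 6.03 in clones 1, 2 and 3 at the first and 10.6, 17.3 and 8.46 at the second. The second thus stood at percentiles 63.6, 75.8 and 78.3, below the *Slc2a1* promoter in each clone. The *Hk2* place lay 17.8 kb from the outermost start, in an intron, with 15.5-, 14.8- and 6.53-fold (percentiles 75.7, 73.0 and 64). In *Hk1* the strongest of the 3 lay 65.9 kb from the outermost start and had 8.97-, 22.9- and 7.2-fold. At *Pfkp* body peaks were listed in clones 2 and 3 only, 5 and 7 of them, and at *Ldha*, *Aldoa*, *Tpi1*, *Gapdh*, *Pgk1* and *Hif1a* in no clone.

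**Figure D4:**
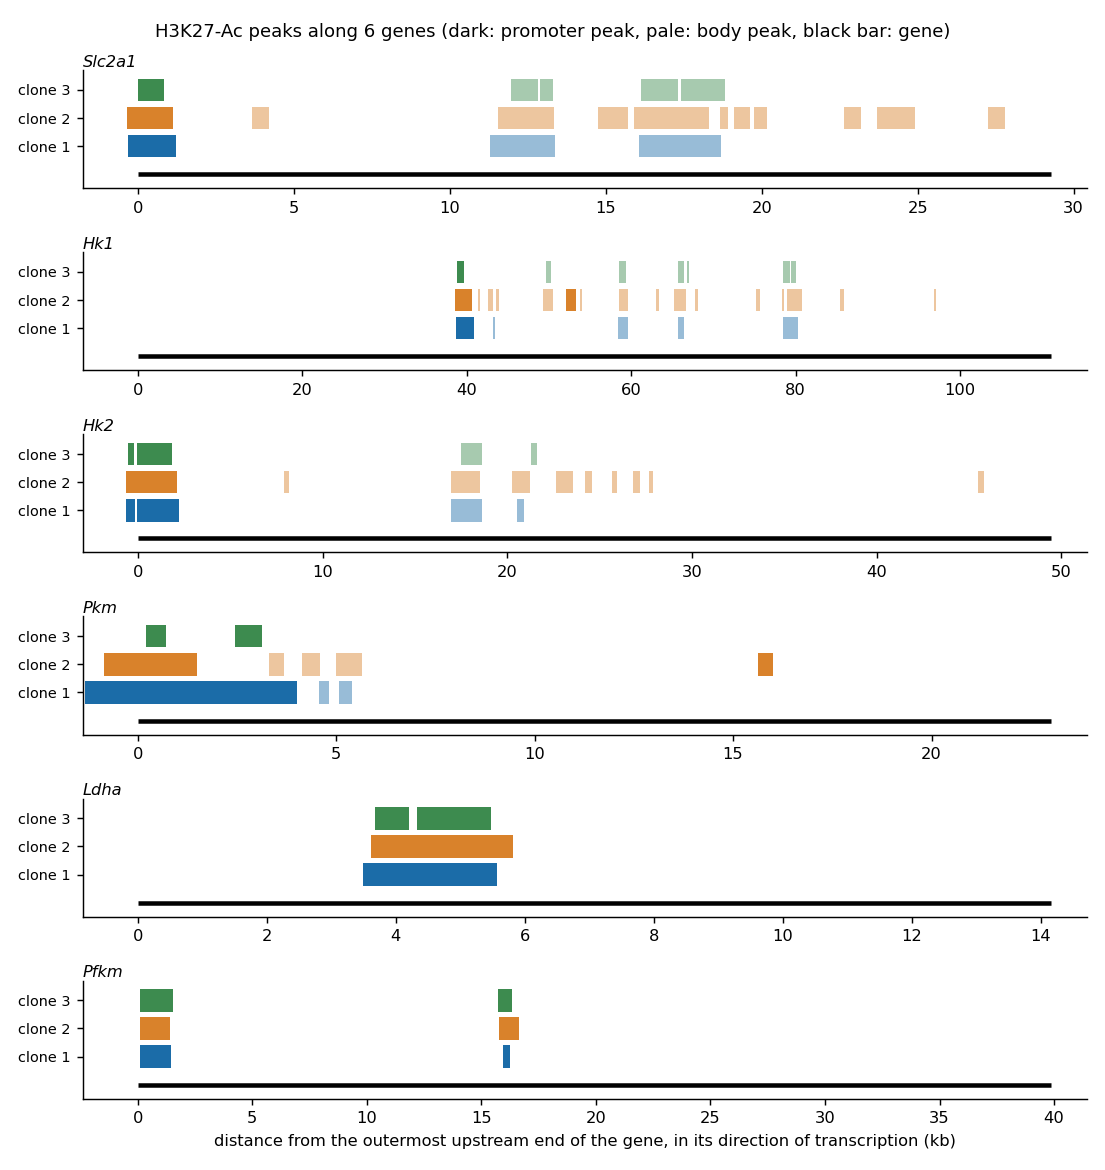
Peaks of the 3 clones along 6 genes, drawn to scale as bars over the gene (black line) by their distance in kb from its upstream end in the direction of transcription, with dark bars for promoter peaks and pale bars for body peaks. The pale bars of *Slc2a1* near 12.3 and 17.4 kb and of *Hk2* near 17.8 kb are present in all 3 clones, and *Pkm* has a dark bar of 5355 bp in clone 1 only.

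Neighbouring peaks with gaps of up to 12.5 kb were also merged to domains, which were ordered by how many bases their peaks covered, among 14560, 18280 and 16371 domains in clones 1, 2 and 3. *Slc2a1* lay in domains of rank 372, 391 and 666, and *Aldoa* in domains of rank 378, 332 and 382. The highest rank of the list in clone 3 was that of *Pfkp*, 224, whose domain ranked 3924 in clone 1 and 894 in clone 2. In clone 2 it was that of *Pdk2*, 118, and *Pdk2* had no peak over it in clones 1 and 3. Such a domain can span several genes.

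Genes marked in all clones kept their place in the lists about as well as other genes. The range of the percentile over clones had a median of 16.8 points for the 23 genes and 16.8 for the 10195 genes with a promoter peak in all 3 clones. *Hk2* (1.8), *Slc2a1* (4.0), *Eno1* (5.6), *Pgk1* (6.7) and *Pfkp* (6.8) had the narrowest ranges, those of *Pgk1* and *Pfkp* from peaks at different places, and *Eno2* (65.0), *Pdk1* (53.5), *Ldha* (41.8), *Pfkfb3* (40.0) and *Tpi1* (36.7) the widest. For all genes the 90th percentile of this range was 50.3 points, which *Eno2* and *Pdk1* exceeded. These ranges follow the fold and so also the control background. In clones 1, 2 and 3 it was 1.0, 1.0 and 4.0 reads at *Pdk1*, 0.677, 0.743 and 3.0 at *Pfkfb3*, and 1.0, 1.0 and 2.08 at *Ldha*. At *Eno2* it was 1.0, 0.743 and 1.54, and at *Tpi1* 3.0, 3.0 and 1.59. In clone 3 *Pdk1* had 76 reads and *Eno2* 30, against a median of 72.5 for the listed genes.

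Neighbouring pathways were given by their promoter peaks alone. Of all protein-coding genes 46.5% had a promoter peak in every clone and 42.6% in none. The median percentiles of those with one were 81.1, 88.1 and 77.4 in clones 1, 2 and 3. All 25 genes of pyruvate entry and the citrate cycle, which oxidise pyruvate in the mitochondrion, had a promoter peak in every clone, with median percentiles of 86.6, 94.2 and 81.4. Those with the highest fold in clone 1 were *Sdhb*, a subunit of succinate dehydrogenase (39.1-, 69.6- and 7.88-fold), and *Ogdh*, a subunit of oxoglutarate dehydrogenase (38.7-, 78.0- and 9.65-fold). Of 7 pentose phosphate genes, which draw on the same sugar phosphates, 6 were marked in all clones and none lacked a peak in all, with *Pgls* at 26.0-, 49.4- and 7.42-fold. Of 7 gluconeogenesis genes 2 were marked in all clones, and *Pck1*, *G6pc* and *Fbp1*, known from liver and kidney, in none. Of 19 other isoforms and side branches 7 were marked in all clones and 7 in none. *Bsg*, the chaperone of the lactate transporters, had 22.6-, 46.9- and 3.76-fold peaks on 99, 211 and 70 reads, at percentiles 85.9, 91.0 and 12.7. Its clone 3 peak was thus low in fold but near the median of the 39 listed genes in reads, which was 72.5. Of 22 genes of the HIF system and its known targets 16 were marked in all clones and *Hif3a*, *Adm* and *Car12* in none, while *Mxi1* had 47.3-, 73.7- and 11.7-fold peaks.

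These values describe 3 clones of 1 condition, of which clones 1 and 2 share control reads. No comparison with normal skin or with other genotypes can be drawn from them, and reads of the 129P2 and FVB/N alleles were summed.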

How the data were processed

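H3K27-Ac was measured by single-end ChIP-seq of 65 bp reads in cultured clones. According to the submitters' processing notes the authors mapped reads to GRCm38 with Bowtie2 and used MACS2 2.1.1. They deposited a fold enrichment (a ratio of ChIP to background at the summit, each plus 1), a −log10 p-value and a −log10 q-value for each peak; peak names say that the reads of clones 1 and 2, but not 3, had been filtered for allelic mapping bias. A fold depends on depth and on the control, which clones 1 and 2 share. Groups followed the labels.

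Peaks outside chromosomes 1 to 19, X and Y were left out (5, 21 and 3). ChIP reads and background were solved from fold and p for 100% of peaks, tested on simulated data. Starts came from GENCODE M21; *Aldoa*, listed there under 2 genes, was taken as ENSMUSG00000030695.16. Promoter sequences came from RefSeq. Python 3.11.15, numpy 2.4.6, pandas 2.3.3 and scipy 1.17.1 were used. All 39 genes could be named; of the other lists at most 6 each, those with the highest fold in clone 1 or with no promoter peak. The members and lists were chosen with earlier results of these data known. There was no test: with 1 condition, values are given as mean and SD over clones.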

Additional observations from a re-analysis of the deposited data

How the results depend on the processing

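The numbers of genes with a promoter peak, with one in every clone and with a body peak, the median percentile and width, and the number of families with the same leader were computed again after dropping peaks under a −log10 q of 5, with as many peaks per list as the shortest list holds, with starts of protein-coding transcripts only, with other windows and overlaps, and without each clone. Of 62 such values 60 stayed within 1.5 times the reported count or within 1 SD of the reported median. For part of them this outcome was fixed in advance. Leaving out a clone cannot move the mean percentile or width by 1 SD. It can only raise the number of families with the same leader, to at most 13, which is within 1.5 times the reported 10. The mean of the median percentiles moved to 73.7 with the stricter q, where the weakest peaks leave the ranking, and to 46.7 when ranked against promoter peaks only, in place of 80.7. Without each clone in turn it was 77.8 to 83.9. Genes with a promoter peak in every clone then numbered 23 to 24, and families with the same leading isoform 10 to 11. Where a peak had to cover a start base 20 genes remained in every clone, since *Pfkm* and *Hif1a* lost 1 clone each and *Eno3* lost 2, and *Pfkl* then led phosphofructokinase in clones 1 and 2. The stricter q left 22, since *Eno2* lost clone 3, and *Pdk3* also lost that clone. Equal list lengths removed the clone 2 peaks of *Aldoc* and *Slc16a3*. Requiring the summit within 1 kb of a start, an alternative chosen after seeing the data, also left 22, without *Eno3*. The other values of the report were not computed again. Families with the same leader numbered 12 when isoforms were ranked by −log10 p or by width; by width *Eno3*, at the peak of *Pfn1*, led enolase in clone 2. No paired analysis was possible because there is 1 condition, with no groups of samples to pair; ratios between isoforms were taken within each clone. A listed peak needs at least 12 to 25 reads at its summit, which limits what a missing peak can say.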
